A study of Mus musculus with 37 samples.

Results

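The mouse mitochondrial genome carries 37 genes, 13 for proteins, 2 for ribosomal RNAs and 22 for transfer RNAs (tRNAs), and all 37 were found among the 51123 gene IDs of the deposited table by a symbol starting with mt-. Their levels were described in 37 RNA-seq libraries of cultured mouse bone marrow (BM) and osteosarcoma cells, as TPM, length-corrected transcript abundances that sum to the same total in every library. In DKO mice, Osx1-Cre, active in mesenchymal progenitors committed to bone, deletes Wwox and Trp53, in SKO mice it deletes Trp53 alone, and both carry a Cre-dependent tdTomato reporter. Set 1 held 16 libraries: control BM (n = 4), BM of young DKO mice without tumors (DKO yBM, n = 6, with 3 at 1.5 months and 3 at 4 months), BM of tumor-bearing DKO mice (DKO BMT, n = 3) and DKO tumor (n = 3). Set 2 held 21 libraries, 3 each of control BM and of the tumor, BMT and yBM of both genotypes. For set 2, and for the control, BMT and tumor cells of set 1, the labels give no age. Control mice are WT in the labels and Cre-negative in the series description, so that no group holds Cre or the reporter with both genes intact under that description. All libraries were made from cells grown in culture, with poly(A) capture and a stranded kit per the labels. The sources do not state for every library that it is a separate animal, and the p-values then reflect the scatter among libraries, which may be technical.

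Both strands of the circular mitochondrial DNA are transcribed from promoters in the control region by the polymerase Polrmt with Tfam, into long precursors that span many genes. tRNAs lie between most of the other genes, and cutting them out releases the ribosomal RNAs and messenger RNAs. The messenger RNAs receive short poly(A) tails, and the proteins they encode are core subunits of complexes I, III, IV and V of oxidative phosphorylation, whose other subunits come from the nucleus. mt-Nd6 is the single protein gene transcribed from the opposite template strand to all other protein genes. mt-Atp8 with mt-Atp6, and mt-Nd4l with mt-Nd4, share a messenger RNA each, with reading frames that overlap.

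The overlap is shown because the ratio of the paired rows is described below. In the transcript sequences of GENCODE M21 (GRCm38), the reading frame of mt-Atp8 (204 nt) shares its last 43 bases, in capitals, with the start of mt-Atp6, and mt-Nd4l shares its last 7 bases, in capitals, with mt-Nd4.
mt-Atp8: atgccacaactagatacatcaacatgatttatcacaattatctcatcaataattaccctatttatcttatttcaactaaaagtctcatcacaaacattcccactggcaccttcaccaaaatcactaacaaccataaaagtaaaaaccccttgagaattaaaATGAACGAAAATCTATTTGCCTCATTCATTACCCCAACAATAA
mt-Nd4l, last 60 bases: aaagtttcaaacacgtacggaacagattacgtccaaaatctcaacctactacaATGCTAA

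Nuclear chromosomes hold old insertions of mitochondrial DNA. A search of the annotated transcripts with the members' sequences found 22 such copies, of which 7 matched a protein gene at 99% identity or more over the aligned stretch, all annotated on chromosome 1. The ends of the paired transcripts are shown because they hold nearly all that sets a full-length copy apart from its member; bases beyond the end of the copy are in capitals.
mt-Atp6: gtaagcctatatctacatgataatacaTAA
Gm10925: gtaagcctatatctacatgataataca
mt-Co2: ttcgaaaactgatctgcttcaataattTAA
Gm28661: ttcgaaaactgatctgcttcaataatt
mt-Nd3: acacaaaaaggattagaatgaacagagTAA
Gm28438: acacaaaaaggattagaatgaacagag
Gm10925 was identical to mt-Atp6 over 678 of its 681 bases, and Gm28661 to mt-Co2 over 681 of 684. Gm28438 differed from mt-Nd3 at 1 base within 345 aligned bases, T3C, counted from 1 at the 5′ end of mt-Nd3 with the member's base first. Gm28437 was identical to 783 of the 784 bases of mt-Co3 and Gm10222 to 294 of the 297 bases of mt-Nd4l. Gm28439 matched 876 of the 1378 bases of mt-Nd4, and Gm29216 matched 483 of the 1545 bases of mt-Co1 at 99.8%. A read from a shared stretch fits the member and the copy equally well, so the 7 rows mt-Atp6, mt-Co1, mt-Co2, mt-Co3, mt-Nd3, mt-Nd4 and mt-Nd4l are uncertain on their own. The other 6 protein genes had no copy this close in the search. However, the last 43 of the 204 bases of mt-Atp8 are the start of mt-Atp6, a stretch that Gm10925 holds as well. Reads from within it fit mt-Atp8, mt-Atp6 and Gm10925 alike. The search could not list this match, since it asked for at least 100 aligned nt. The effect on the mt-Atp8 row was not tested. Apart from this stretch, the rows of these 6 genes do not carry this limit. Their shares of the protein-gene total do, since that total holds the 7 rows.

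Before the members are compared, the labels and cell types need a check, since some libraries went against their labels. Trp53 was at 63.3% and 72.1% of its control mean in 2 libraries of set 1 that carry the label DKO BMT (2 and 3). Wwox was at or above 50% of its control mean in 7 libraries labelled DKO in set 1 and in all 3 labelled DKO tumor in set 2, and at 2.84% and 2.39% in those labelled SKO BMT 2 and 3 of set 2. The 7 of set 1 were DKO yBM 2 to 6 (85.1% to 140%), DKO BMT 1 (164%) and DKO tumor 1 (101%). Among DKO yBM of set 1, library 1 alone was below 50%, at 11.6%. Fits without the libraries that went against their labels are given where they changed a call, except for DKO BMT of set 1, left with 1 library. The summed level of 15 leukocyte markers lay between 21870 and 26735 TPM in the control BM of set 2, at 14.4 to 23.4 TPM in the DKO yBM of set 2, and between 12.5 and 16945 TPM across set 1, with 2828 to 15434 TPM in its control BM. Erythroid markers reached at most 12.2 TPM in sum, and osteoblast and mesenchymal stromal markers were present in every group.

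The 37 genes took between 5.32% and 32.5% of the TPM, with a median of 13.6%. In control BM of set 1 the share was 13.9%, 8.26%, 19.5% and 21.5%, a mean of 15.8% ± 5.96 (SD, n = 4). DKO yBM of set 1 ranged from 10.9% through a median of 15.7% to 23.1% (n = 6). DKO BMT of set 1 gave 5.32%, 22.2% and 12.4%, and DKO tumor of set 1 gave 8.93%, 17.0% and 15.6%. All 4 groups of set 1 overlapped, and DKO BMT alone spanned most of the range of the set. Within DKO yBM the 3 libraries at 1.5 months averaged 13.5% ± 3.79 (SD, n = 3) and the 3 at 4 months 18.9% ± 4.87 (SD, n = 3), with overlapping values.

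In set 2 the control BM libraries stood at 32.5%, 13.6% and 9.07%, so that 1 control library had the highest share of the series. SKO yBM gave 17.7%, 15.7% and 14.5%, and DKO yBM gave 9.62%, 15.0% and 6.87%. SKO BMT gave 7.39%, 8.40% and 20.1%, and DKO BMT gave 11.1%, 13.1% and 12.8%. The spread was widest in control BM (18.4% ± 12.4, SD, n = 3) and narrowest in DKO tumor (11.6% ± 1.02, SD, n = 3). SKO tumor held 14.9%, 26.8% and 15.1%, and DKO tumor 10.4%, 12.3% and 12.1%. Every SKO tumor library thus lay above every DKO tumor library, while the yBM and BMT groups of the 2 genotypes overlapped. Without mt-Atp8 the tumor groups overlapped as well, at 4.18%, 5.12% and 4.89% in SKO and 4.00%, 4.07% and 4.26% in DKO. The share is a sum over the members and was given no test; the Wwox levels of the 3 libraries labelled DKO tumor, named above, went against that label. In bulk cultures, more mitochondrial RNA per cell and a shift between kinds of cells cannot be told apart.

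**Figure D1:**
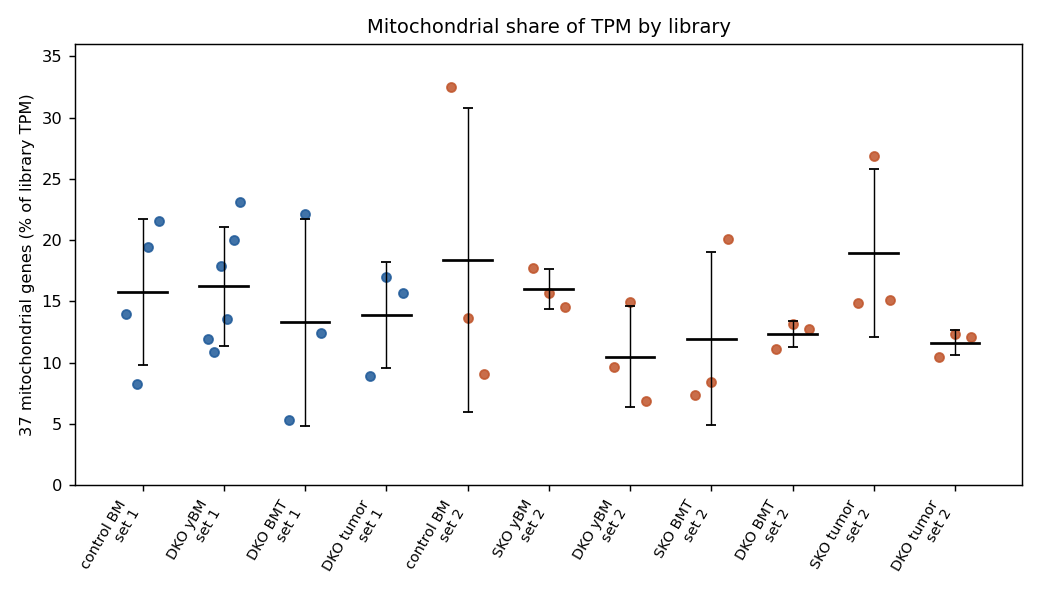
The share of each library's TPM taken by the 37 mitochondrial genes (y axis, percent) is plotted by group (x axis), with 1 point per library, the group mean as a line and the SD as bars; set 1 is blue and set 2 orange. Groups overlap across both sets, and the highest point, 32.5%, is a control BM library of set 2.

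The 13 protein genes carried nearly all of this share, at 14.3% of the TPM on average, against 0.198% for the ribosomal RNAs and 0.0762% for the tRNAs. mt-Atp8, a small subunit of ATP synthase (complex V), had a median of 94330 TPM and held 65.2% ± 9.54 (SD, n = 37) of the TPM of the protein genes. The next medians were 7801 TPM for mt-Co1, the catalytic subunit of complex IV, and 7012 TPM for mt-Nd4l, a complex I subunit. mt-Co3 (4962 TPM), mt-Nd1 (4948 TPM) and mt-Cytb (4383 TPM) followed, the last being the subunit of complex III. mt-Atp6, the proton channel subunit of complex V, had a median of 3465 TPM although it shares its messenger RNA with mt-Atp8. The lowest protein-gene rows as deposited were mt-Co2 (829 TPM), which carries the copper site that accepts electrons from cytochrome c, mt-Nd6 (570 TPM) and mt-Nd3 (191 TPM). This order depends on where matching sequence was listed: with the nuclear copies added, mt-Atp6 came second at 9.69% of the protein-gene TPM after mt-Atp8 at 53.4%, mt-Co2 held 5.79%, and the lowest were mt-Nd6 at 0.338%, mt-Nd5 at 1.12% and mt-Nd2 at 1.95%. The ribosomal RNAs, which poly(A) capture is not designed to hold, stood at 1286 TPM for mt-Rnr2 and 338 TPM for mt-Rnr1. TPM divides by transcript length, so short genes weigh more in these shares. Weighted by length, which follows the mass of RNA, mt-Atp8 held 29.4% and mt-Co1 20.7%, mt-Cytb 8.28%, mt-Nd1 7.98% and mt-Co3 6.89%, and mt-Atp8 stayed first on average.

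Among the rows without a close copy, group means of the share of the protein-gene TPM were as follows. mt-Nd1 averaged from 4.59% (DKO tumor) to 5.57% (DKO BMT) in set 1 and from 2.73% (SKO tumor) to 4.56% (DKO tumor) in set 2. mt-Cytb averaged 4.02% (DKO tumor) to 4.94% (control BM) in set 1 and 2.31% (DKO yBM) to 3.92% (DKO tumor) in set 2. Both rows were thus highest in set 2 in the libraries labelled DKO tumor. mt-Nd2 averaged 2.79% to 3.79% in set 1 and 1.33% to 2.37% in set 2, mt-Nd5 1.45% to 2.69% and 0.738% to 1.29%, and mt-Nd6 0.414% to 0.535% and 0.236% to 0.587%. mt-Atp8 averaged 53.2% (DKO BMT) to 64.6% (DKO tumor) in set 1 and 65.7% (DKO tumor) to 74.5% (SKO tumor) in set 2, so its lowest group mean of set 2 was above its highest of set 1. As deposited, the group means of the sets did not overlap for mt-Atp8, mt-Nd1, mt-Cytb, mt-Nd2 and mt-Nd5, with mt-Nd1 the closest at 4.56% and 4.59%. Those of mt-Nd6 in set 1 lay inside its range in set 2. With copies added to the total, the group means of mt-Nd1 and mt-Cytb overlapped between the sets. DKO tumor then held 4.09%, 3.49% and 3.79% for mt-Nd1 in set 2, against 3.30%, 3.84% and 3.68% in set 1. For mt-Cytb it held 3.31%, 2.94% and 3.53%, against 1.70%, 4.16% and 3.64%.

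Of the rows with a close copy, mt-Co1 averaged 4.87% to 10.3% in set 1 and 4.78% to 7.55% in set 2, mt-Co3 3.14% to 6.36% and 2.81% to 5.50%, and mt-Nd4l 5.03% to 7.03% and 4.02% to 7.12%. mt-Nd4 averaged 2.36% to 3.84% in set 1 and 1.30% to 2.28% in set 2, mt-Atp6 4.95% to 7.18% and 1.23% to 3.44%, mt-Co2 0.573% to 0.863% and 0.410% to 1.16%, and mt-Nd3 0.103% to 0.186% and 0.0894% to 0.303%. The high mt-Co2 mean of the set 2 control BM rested on 1 library, at 2.42% against 0.529% and 0.530% in the other two. That library also had the highest mitochondrial share of the series.

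**Figure D2:**
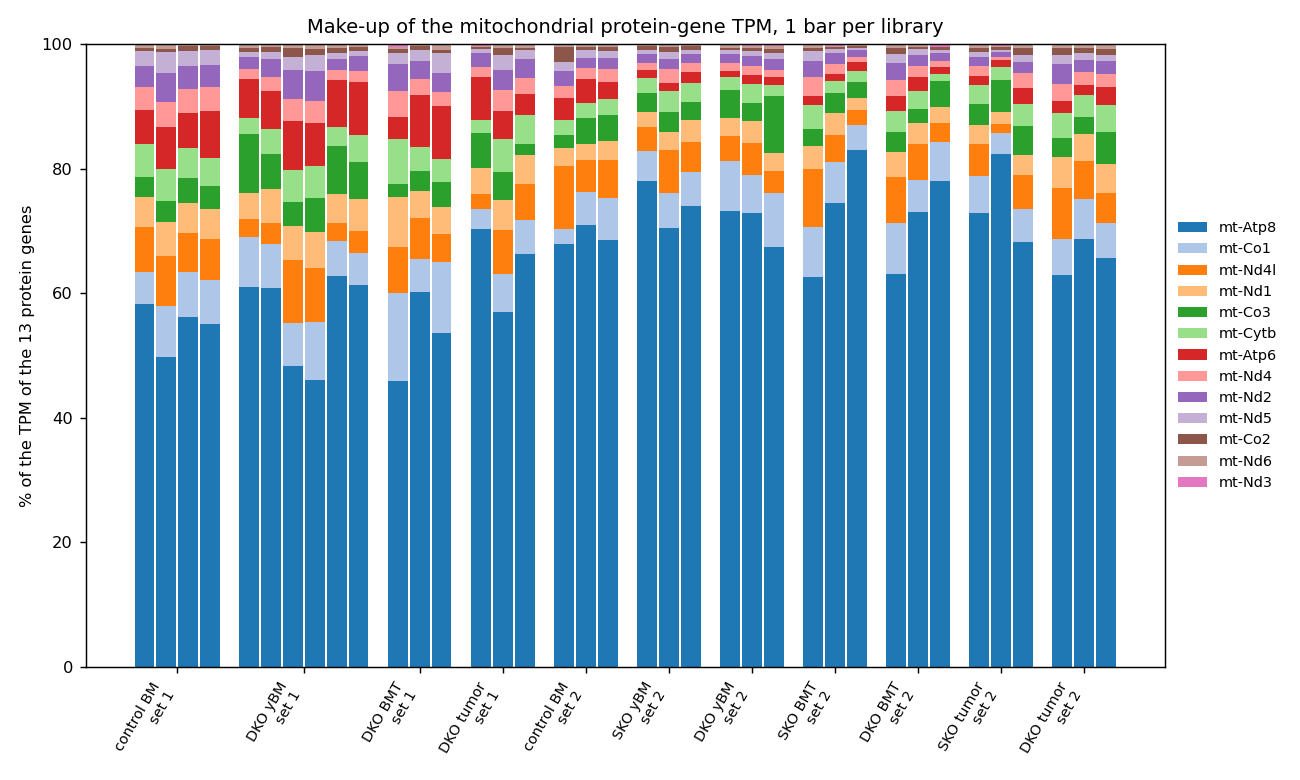
Each bar is 1 library and stacks the percent of the protein-gene TPM held by each of the 13 protein genes (y axis), with libraries ordered by group (x axis). mt-Atp8 takes 45.9% to 70.3% of the bar in set 1 and 62.6% to 82.9% in set 2, and mt-Atp6 is the segment that shrinks most from set 1 to set 2.

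DKO yBM of set 1 fell into unlike libraries that did not follow age. mt-Nd4l held 10.2% and 8.59% of the protein-gene TPM in libraries 3 (1.5 months) and 4 (4 months), against 2.89% to 3.45% in the other 4. mt-Nd5 held 2.13% and 2.63% in these libraries, against 0.886% to 1.18% in the others, and mt-Nd2 4.62% and 4.70% against 1.74% to 2.94%. In control BM mt-Nd5 held 2.36% to 3.43%, a range that holds library 4, while library 3 lay just below it and the other 4 well below. Libraries 3 and 4 also had the lowest mean log2 levels of the group for leukocyte markers (4.43 and 6.28, against 6.98 to 8.11) and adipocyte markers (3.33 and 3.27, against 4.32 to 6.30), and the part of these cells in the split was not tested.

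Copies took a large and uneven part of what matched their members. Of the TPM of mt-Atp6 and Gm10925 together, the mt-Atp6 row held 15.4% to 69.6% in set 1 and 9.39% to 42.7% in set 2. Within set 2 it held 42.7%, 39.8% and 28.2% in control BM, 11.6% to 17.8% in SKO yBM, 10.4% to 15.4% in DKO yBM and 10.2% to 15.0% in SKO BMT. Control BM thus kept more of this pair in the mitochondrial row than each of those groups in every library. The mt-Co2 row held 4.55% to 16.2% beside Gm28661, except for 67.8% in 1 control BM library of set 2. The mt-Nd3 row held 0.674% to 14.1% beside Gm28438, so nearly all of that sequence was listed under the nuclear name. The mt-Co3 row held 13.4% to 100%, mt-Nd4 60.2% to 100%, mt-Co1 60.8% to 100% and mt-Nd4l 58.7% to 100%, the last being 100% in all 21 libraries of set 2, where Gm10222 was listed at 0. Adding the 7 copies, a choice made after seeing the data, raised the share of all mitochondrial sequence from a mean of 14.6% to 17.7% of the TPM. The copies' own transcription was not tested.

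The ratio of mt-Atp8 to mt-Atp6 was lower in control BM than in every library of the other groups of set 2 but DKO tumor (22.5 to 45.2) before copies were added. As deposited it was 18.9, 17.8 and 25.1 in control BM, 43.3 to 66.3 in SKO yBM, 51.2 to 70.5 in DKO yBM and 43.2 to 65.7 in SKO BMT. With Gm10925 added to mt-Atp6 every library of set 2 lay between 6.14 and 8.07 and every library of set 1 between 2.02 and 4.98. The means were 7.20 ± 0.532 (SD, n = 21) and 4.01 ± 0.670 (SD, n = 16). The sets did not overlap. In set 2 control BM, at 7.08 to 8.07, then overlapped every other group but SKO BMT, at 6.47 to 6.99. mt-Nd4l to mt-Nd4 showed the same order: with copies added it was 1.58 to 2.11 in set 1 and 2.31 to 3.66 in set 2. In both pairs the shorter reading frame was higher relative to the longer one in set 2, and since the labels give 1 protocol for all libraries, what differed between the sets cannot be told apart.

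**Figure D3:**
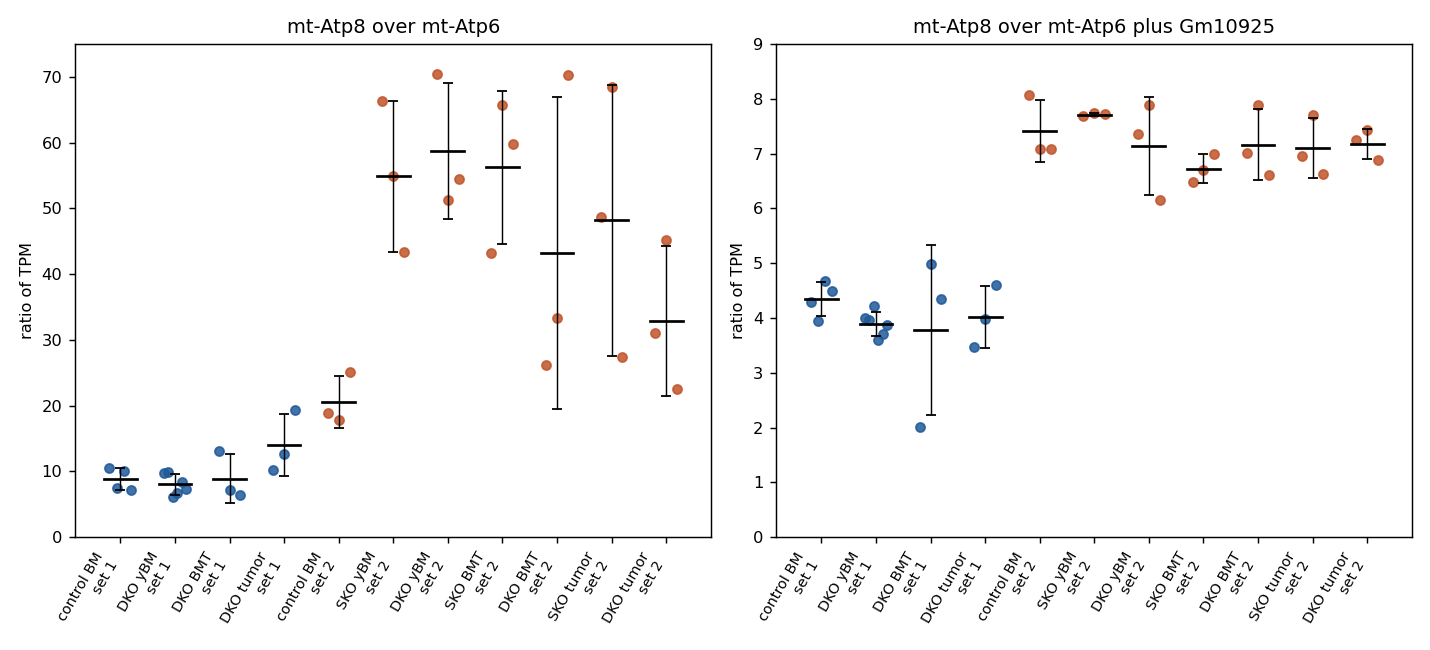
The ratio of mt-Atp8 TPM to mt-Atp6 TPM (left) and to mt-Atp6 plus Gm10925 (right) is plotted by group, with 1 point per library, means as lines and SD as bars. On the left, 17.8 to 70.5 in set 2 spreads widely by group; on the right the libraries form a band at 6.14 to 8.07 for set 2 and at 2.02 to 4.98 for set 1.

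For tests, limma was fitted over all genes of a set on log2(TPM + 1), with p-values adjusted over all genes tested, and members at an adjusted p under 0.05 were called. In set 1, 31 members passed the filter on low values (all 13 protein genes, both ribosomal RNAs and 16 tRNAs). None was called in DKO yBM against control BM, where 7.81% of all genes were, nor in DKO BMT (2.35% of all genes) or DKO tumor (3.39%). At an unadjusted p under 0.05 the counts of members were 2, 0 and 2. Of the 14404 genes tested, 3929, 2866 and 3262 were under it. The same 0 held for DKO tumor against DKO BMT (0.257% of all genes), for 4 months against 1.5 months in DKO yBM (0.00694%) and for the F test over all groups (4.05%). There 0, 0 and 2 members were at an unadjusted p under 0.05, beside 1861, 155 and 3988 of all genes. SEs for the protein and ribosomal RNA genes had a median of 0.53 on the log2 scale in set 1. The members nearest to a call were tRNAs. mt-Tq, for glutamine, was listed at 0 in all 4 control BM libraries and in 1 of 6 DKO yBM libraries, where it reached 101 TPM (adjusted p = 0.064, limma), so no fold is given. mt-Tm, for methionine, differed by 1.00 on the log2(TPM + 1) scale (SE 0.35, adjusted p = 0.083). Leaving out DKO BMT 2 and 3, whose Trp53 went against the label, leaves DKO BMT 1, whose Wwox was at 164% of the control mean. There mt-Ts1, for serine, and mt-Tk, for lysine, were listed at 0. In control BM they stood at 197 to 623 TPM and at 46.5 to 439 TPM. A fit with this lone library assumes that it varies like the other groups, and its calls are not given.

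In set 2, 21 members were tested, and 3 calls were made over all comparisons within the set, each lower than control BM. mt-Atp6 was the 1 member called in DKO yBM against control BM, beside 19.5% of all genes. It stood at 966, 2091 and 799 TPM in DKO yBM and at 11614, 5376 and 2445 TPM in control BM. No DKO yBM library reached the lowest control library, and the difference was -2.19 on the log2(TPM + 1) scale (SE 0.52, adjusted p = 0.0071, limma). In SKO BMT against control BM (13.4% of all genes) 2 members were called. mt-Atp6 was at 1061, 941 and 2718 TPM in SKO BMT, a difference of -1.94 (SE 0.52, adjusted p = 0.020), with 1 library above the lowest control. mt-Nd6 was at 302, 157 and 210 TPM in SKO BMT and at 1306, 565 and 332 TPM in control BM, a difference of -1.53 (SE 0.46, adjusted p = 0.035), without overlap. At an unadjusted p under 0.05 there were 7 of the 21 members in DKO yBM, of which mt-Rnr2 alone was higher, and 4 in SKO BMT, all lower. Of the 14458 genes tested, 4706 in DKO yBM and 4209 in SKO BMT were under it. Leukocyte markers differed from control BM by the amounts given above in the same comparisons (in SKO BMT they summed to 6.24 to 3099 TPM), and their part in these results was not tested.

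The mt-Atp6 calls did not hold once the copy was counted in. Gm10925 itself was at 15608, 8117 and 6223 TPM in control BM and at 8294, 11475 and 6283 TPM in DKO yBM, a difference of -0.13 (SE 0.45, adjusted p = 0.87, limma). With the copy added, mt-Atp6 differed by -0.61 (SE 0.44, adjusted p = 0.36) in DKO yBM and by -0.36 (SE 0.44, adjusted p = 0.63) in SKO BMT. mt-Nd6, which has no close copy, kept its value of -1.53 (adjusted p = 0.035), and mt-Nd5, a complex I subunit, passed in DKO yBM at -1.48 (SE 0.51, adjusted p = 0.0498) where it had narrowly missed (adjusted p = 0.0502). mt-Nd5 was at 634, 1082 and 556 TPM in DKO yBM and at 4705, 1609 and 1091 TPM in control BM, with DKO yBM 2 just below the lowest control library. Without SKO BMT 2 and 3, whose Wwox went against the label, the remaining SKO BMT library gave -2.33 (adjusted p = 0.060) for mt-Atp6 and -1.05 (adjusted p = 0.38) for mt-Nd6. Neither was then called in this fit, where the lone library is assumed to vary like the other groups and the difference of mt-Atp6 was larger than before. mt-Nd6 also lost its call without control WT1 (decreased by 1.00, adjusted p = 0.19), control WT2 (-1.61, adjusted p = 0.075), SKO BMT 2 (-1.31, adjusted p = 0.12) or SKO BMT 3 (-1.52, adjusted p = 0.077). mt-Atp6 in SKO BMT lost its call without control WT1 (-1.38, adjusted p = 0.12), control WT2 (-1.93, adjusted p = 0.060), SKO BMT 1 (-1.74, adjusted p = 0.079) or SKO BMT 2 (-1.65, adjusted p = 0.080).

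**Figure D4:**
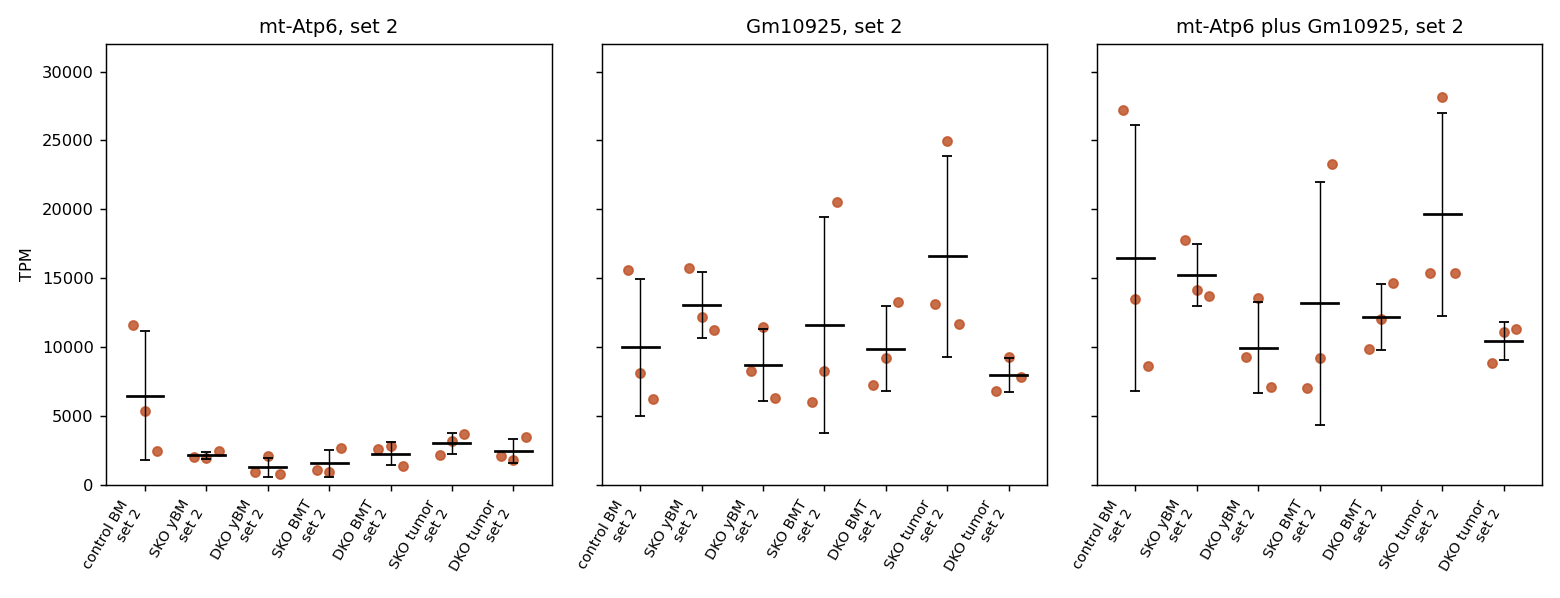
TPM of mt-Atp6 (left), of its nuclear copy Gm10925 (middle) and of their sum (right) in the 7 groups of set 2, with 1 point per library, means as lines and SD as bars on a common axis. Control BM holds the 2 highest mt-Atp6 values, 11614 and 5376 TPM, with the other at 2445 TPM among the other groups; for the copy its libraries, at 6223 to 15608 TPM, lie among the others.

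No member was called against control BM in SKO yBM (13.5% of all genes), DKO BMT (12%), SKO tumor (11.6%) or DKO tumor (17.2%), nor in the F test over all groups of set 2 (9.88%). At an unadjusted p under 0.05 these counts were 2, 2, 2, 1 and 2, beside 4248, 3896, 3460, 4421 and 3596 of the 14458 genes tested. mt-Atp6 was among them in SKO yBM (-1.31, adjusted p = 0.11), DKO BMT (-1.29, adjusted p = 0.12) and DKO tumor (-1.18, adjusted p = 0.14). Those 3 groups share the control libraries with the comparisons above. The ribosomal RNA of the large subunit moved the other way without being called: mt-Rnr2 was at 2997, 2285 and 3479 TPM in DKO yBM and at 926, 833 and 724 TPM in control BM. All DKO yBM libraries were above all controls. So were all libraries of SKO yBM (1020 to 2081 TPM), SKO tumor (971 to 4153 TPM) and DKO tumor (1299 to 2582 TPM), against the same controls. SKO BMT (503 to 4313 TPM) and DKO BMT (845 to 3079 TPM) overlapped them. The share of all genes without overlap is not given here. Leukocyte markers summed to 9.35 to 38.2 TPM in SKO yBM, 10.6 to 30.8 TPM in SKO tumor and 10.4 to 23.1 TPM in DKO tumor. In control BM they summed to 21870 to 26735 TPM, and their part in these results was not tested. In DKO yBM the difference of mt-Rnr2 was 1.80 (SE 0.66, adjusted p = 0.065, limma). It was called when the fit held the 2 compared groups alone, and when SKO BMT 2 and 3 were left out (adjusted p = 0.023).

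Between genotypes no member was called in yBM (0.0207% of all genes), BMT (0%) or tumor (0%). At an unadjusted p under 0.05 there were 2, 0 and 3 members, beside 431, 378 and 1213 of the 14458 genes tested. The difference nearest to a call was mt-Nd3 in tumors, at 18.4, 191 and 108 TPM in DKO and 345, 807 and 284 TPM in SKO, without overlap (-2.54, SE 0.74, adjusted p = 0.59, limma). mt-Nd3 is the row with the most sequence under a nuclear name. Together with Gm28438 it stood at 2728, 2581 and 3141 TPM in DKO and at 3974, 8217 and 3527 TPM in SKO, still without overlap, and the difference was -0.79 (SE 0.47, adjusted p = 0.61). Tumor against BMT gave 0 calls in SKO (0.083% of all genes) and in DKO (0.083%), with 4 and 1 members at an unadjusted p under 0.05. The difference of these changes between genotypes gave 0 (0%), with 2. Of all genes 1649, 565 and 275 were under it in these 3 tests. In SKO tumor against SKO BMT, mt-Nd6 differed by 1.53 (SE 0.46) and mt-Co3, a complex IV subunit, by 1.38 (SE 0.41), both at an adjusted p of 0.43. SEs in the comparisons of 2 groups of set 2 lay between 0.25 and 0.74 for the protein and ribosomal RNA genes.

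A second fit took each gene relative to the summed TPM of the 13 protein genes, so that it asks about their make-up and not their total. In set 1 it called 0 of 13 protein genes in DKO yBM (0.111% of all genes), DKO BMT (0.0694%) and DKO tumor (0.0694%) against control BM, in DKO tumor against DKO BMT (0.75%), between ages (0.0139%) and in the F test (0.458%). At an unadjusted p under 0.05 the one gene was mt-Nd5 in DKO yBM (-1.01, SE 0.47, adjusted p = 0.68, limma). In that comparison 1026 of the 14404 genes tested were under it. In set 2 it called 0 of 13 against control BM in DKO tumor (4.9%), SKO tumor (4.71%), DKO BMT (2.91%), SKO BMT (3.03%), DKO yBM (6.74%) and SKO yBM (4.08%). Among these, mt-Atp6 was lowest, at -1.31 in SKO yBM, -1.47 in DKO yBM and -1.37 in SKO BMT, with adjusted p-values of 0.23, 0.078 and 0.17. The count was also 0 for DKO against SKO in yBM (0.0207%), BMT (0%) and tumor (0%), for tumor against BMT in SKO (0.0346%) and DKO (0.0761%), for the difference between genotypes (0%) and for the F test (3.32%). At an unadjusted p under 0.05 the counts, in this order, were 0, 0, 0, 1, 2 and 1 against control BM, and 0, 0, 1, 0, 1, 0 and 1 in the later ones. Over the 14458 genes tested they were 2630, 1765, 2012, 2593, 3607 and 1717, and 334, 135, 1435, 2245, 179, 241 and 1879. The SEs had a median of 0.60 in set 2, and mt-Nd3 was the gene at an unadjusted p under 0.05 in DKO against SKO tumor, in DKO tumor against DKO BMT and in the F test.

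The largest differences lay between the sets. In a fit of group label plus set over the 4 labels both sets hold, 19 of 31 members were called, all lower in set 2, beside 20.3% of all genes. These were 6 protein genes and 13 tRNAs, with a median difference of -0.35 over the 13 protein genes and 0.08 over all genes. The filter pooled both sets, and 6 of these tRNAs were listed at 0 in all 12 set 2 libraries of these labels. mt-Tg, mt-Tw, mt-Tn and mt-Te were above 0 in 1 or 2 of those libraries. Such rows passed the filter through set 1 and could hardly be called higher in set 2, so 19 of 31 is not comparable with the 20.3%. mt-Atp6 differed by -1.84 (SE 0.35, adjusted p = 6.3e-04, limma). The rows without a close copy that were called were mt-Nd5, which decreased by 1.00, mt-Nd2 at -0.93, mt-Cytb at -0.90 and mt-Nd1 at -0.75, with SEs of 0.22 to 0.30 and adjusted p-values of 0.012 to 0.024, and mt-Nd4 differed by -0.89. mt-Atp8, on the other hand, differed by 0.10 (SE 0.25) and mt-Nd4l by -0.19 (SE 0.33), neither called. As deposited, the short frames thus did not show the decrease measured for their longer partners. The value of mt-Nd4l is uncertain, since its copy Gm10222 was listed at 0 in set 2 and at up to 4743 TPM in set 1. mt-Nd6 (-0.23), mt-Co1 (-0.35), mt-Co3 (-0.30), mt-Co2 (-0.18), mt-Nd3 (0.13), mt-Rnr1 (-0.24) and mt-Rnr2 (0.43) were not called. With copies added 21 were called, mt-Co1 (-0.61) and mt-Co2 (-0.87) joining, and mt-Atp6 was at -0.77 (adjusted p = 0.0091). Without the control BM libraries, whose leukocyte markers differ between the sets as given above, 18 were called. Without the libraries labelled DKO whose Wwox was at 50% or more of the control mean 12 were called, and of the protein genes mt-Atp6 alone.

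Relative to the protein-gene total, mt-Atp6 was the 1 of 13 called between the sets (-1.65, SE 0.25, adjusted p = 1.8e-05, limma), beside 3.52% of all genes. With copies added it was no longer called (-0.50, adjusted p = 0.079), and mt-Nd4 was (-0.90, SE 0.22, adjusted p = 0.015). By complex, with copies added and weighted by length, complex I subunits held 27.6% of the protein-gene RNA over all set 1 libraries. Over all set 2 libraries, SKO groups included, they held 21.4%, and complex V subunits held 29.8% and 38.3%. In control BM, DKO yBM and DKO BMT complex V was at 25.6%, 30.6% and 26.6% in set 1 and 38.4%, 36.4% and 37.8% in set 2. DKO tumor went the other way, at 46.1%, 28.9% and 35.4% in set 1 and 30.9%, 33.8% and 31.0% in set 2. Its complex I share was 26.8% and 25.4%. Set and whatever was done differently for it cannot be told apart.

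tRNA rows differed most. They summed to 0.0573% to 0.313% of the TPM in set 1, with 6 to 15 of the 22 genes above 0, and to 0.00183% to 0.0164% in set 2, with 1 to 5 above 0. No library of one set reached the other. Over the 37 libraries 18 of the 22 tRNAs had a median of 0, and the highest medians were 51.7 TPM for mt-Tl1, for leucine, 23.1 TPM for mt-Ts1 and 19.3 TPM for mt-Tm. mt-Tm was above 0 in 16 of 16 libraries of set 1, with a median of 157 TPM and a lowest value of 65.7 TPM, and in 3 of the 12 libraries of set 2 with the same labels, where the highest value was 24.6 TPM. The groups did not overlap, and the difference was -6.08 (SE 0.53, adjusted p = 3.0e-09, limma). Its size depends on the pseudocount, since most set 2 values were 0. mt-Tl1 was above 0 in 16 of 16 with a median of 252 TPM, and in 8 of 12 with a median of 19.5 TPM (-4.57, SE 0.67, adjusted p = 2.8e-05). mt-Ts1, mt-Tg for glycine, mt-Te for glutamate, mt-Tw for tryptophan and mt-Tn for asparagine were also called. The other 6 called tRNAs, mt-Tk, mt-Td, mt-Ti, mt-Tt, mt-Tr and mt-Tc (for lysine, aspartate, isoleucine, threonine, arginine and cysteine), were listed at 0 in all 12 libraries of set 2, so no fold is given. mt-Tk, which lies between mt-Co2 and mt-Atp8, was above 0 in 15 of 16 libraries of set 1 with a median of 166 TPM.

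**Figure D5:**
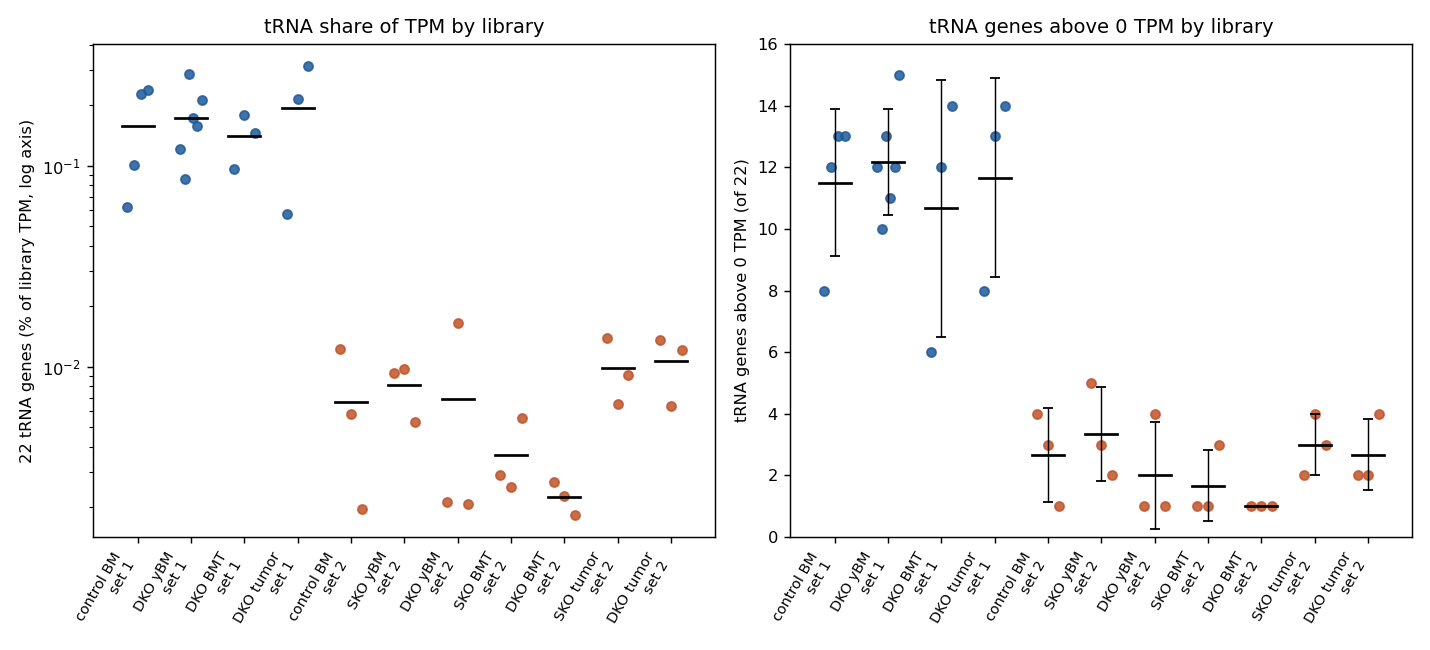
The share of TPM held by the 22 tRNA genes (left, percent, log axis) and the number of them above 0 TPM (right) are plotted by group, with 1 point per library, means as lines and, on the right, SD as bars. Set 1 lies at 0.0573% to 0.313% and set 2 at 0.00183% to 0.0164%.

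Within a library, 231 of the 235 tRNA values above 0 were whole multiples, within 1%, of the smallest tRNA value, which was 16.3 to 33.2 TPM in set 1 and 10.9 to 29.1 TPM in set 2. This holds by construction for the smallest value of each library, which in 8 libraries was the single tRNA above 0. It also does for the highest multiples, 63 and 66, since the 1% was taken of the multiple. Summed over the tRNAs a library of set 1 held 26 to 177 such steps, with a median of 73.5, and a library of set 2 held 1 to 9, with a median of 3. If a step stands for 1 fragment, each set 2 library had at most 9 fragments on all tRNAs, and differences among the groups of set 2 were not detectable at this depth.

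Nuclear genes whose products act on mitochondrial DNA and RNA or join its proteins in the respiratory complexes were read from the same fits. In set 1, of 46 tested of 49 factors for mitochondrial DNA upkeep, transcription and RNA handling, 0 rose and 2 fell in DKO yBM, 0 were called in DKO BMT and 2 rose in DKO tumor. In set 2, of 45 tested, 5 rose and 1 fell in DKO tumor, 0 and 1 in SKO tumor, 4 and 1 in DKO BMT, 6 and 0 in SKO BMT, 5 and 1 in DKO yBM and 1 and 1 in SKO yBM. In the comparisons with control BM the share of factors called was 2.22% to 13.3% in set 2, below the share of all genes in each, and 0% to 4.35% in set 1. Tk2, the mitochondrial thymidine kinase, was the factor that fell in DKO yBM (-1.24, adjusted p = 0.029, limma), and it also fell in SKO yBM, DKO BMT, SKO tumor and DKO tumor (-1.49, -1.20, -1.77 and -1.76). Tbrg4, which acts on mitochondrial messenger RNA, rose in DKO yBM (2.04, adjusted p = 0.012) and also in SKO yBM, SKO BMT and DKO tumor (1.65, 1.72 and 1.80). Twnk, the mitochondrial DNA helicase, rose in SKO BMT (1.59, adjusted p = 0.0095). Its mean was 14.2 TPM there, 4.07 TPM in control BM of set 2 and 5.37 to 10.9 TPM in the other groups of set 2. Of 75 tested of 77 nuclear subunits of oxidative phosphorylation, 6, 3 and 1 rose and 0 fell in the DKO yBM, BMT and tumor of set 1. In set 2, 3 rose and 2 fell in DKO tumor, 1 and 2 in SKO tumor, 4 and 1 in DKO BMT, 8 and 1 in SKO BMT, 14 and 1 in DKO yBM and 1 and 2 in SKO yBM. The share of subunits called was at most 20%, in DKO yBM of set 2, beside 19.5% of all genes, and in the other comparisons of set 2 it was below that of all genes. In set 1 it was 8%, 4% and 1.33%, beside 7.81%, 2.35% and 3.39%. Cox6b1, a complex IV subunit, fell in SKO yBM, SKO BMT, DKO BMT, SKO tumor and DKO tumor of set 2 (-1.34, -1.23, -1.16, -1.21 and -0.96), and Uqcrc2, of complex III, fell in SKO yBM and SKO tumor (-0.82 and -0.95). Ndufa12, a complex I subunit, rose in all 3 DKO groups of set 1 (0.98, 2.13 and 1.87) and in DKO yBM (1.75), SKO BMT (1.35) and DKO BMT (1.46) of set 2, comparisons that share their controls within a set. The medians of the 75 subunits were 0.23 in DKO yBM of set 1, beside -0.22 over all genes, and 0.56 in DKO yBM of set 2, beside 0.07 over all genes, where the tested members had medians of -0.01 and -0.67. Between the sets 33 of the 75 subunits were higher in set 2 and 2 lower, 46.7% called beside 20.3% of all genes. Their median was 0.35, beside 0.08 over all genes, while no mitochondrially encoded subunit was called higher. The part that cell types play in these values was not tested.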

How the data were processed

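The authors sequenced poly(A)-captured RNA and deposited TPM per gene for 37 libraries. Trim Galore 0.6.1, FastQC, Salmon, DESeq2 and the build mm39 appear in the submitters' processing notes, while the methods text differs in the Trim Galore version. Salmon's transcript set is not given in the sources used here. TPM keeps no depth, so library depth is unknown here, and counting errors are not given. Of 51123 gene IDs, 48246 matched a symbol in GENCODE M21 (GRCm38) and 2877 did not; that build gave names, gene order and sequences, and no coordinates are given. The 3 control columns of set 2 could be tied to that group but not to single samples.

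The members and lists were chosen with earlier results of these data known. Genes reaching 1 TPM in 3 or more libraries were tested with limma 3.58.1 (R 4.3.3) on log2(TPM + 1), trended prior, all groups of a set in a fit, Benjamini-Hochberg adjustment over all genes, called at adjusted p under 0.05. Fold changes on this scale understate changes of low genes. Named were all protein and ribosomal RNA genes, called tRNAs or those among the 3 highest medians, and at most 3 called genes per nuclear list and comparison; mt-Tq was named after its values were seen. Copies were sought with BLAST+ 2.17.0 (at least 80% identity over 100 nt). Sums and shares used Python 3.11.15 with pandas 2.3.3. The fits were tested on simulated data. Alternatives were another pseudocount (0.1), filter, scaling and sample sets, leaving out each replicate, and a replicate block. Added after seeing the data were the copies, the fits without SKO libraries of low Wwox, and, between sets, the fits without control BM or without libraries against their label and the other scalings. The paper describes tumor and BMT cells of set 1 as paired, and same-numbered libraries were taken as the pairs: their deviations from the group means correlated at 0.0664, 0.285 and -0.0907. A fit of tumor and BMT libraries alone with the replicate number as a block was added after seeing the data. No 2 libraries correlated above 0.972.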

Additional observations from a re-analysis of the deposited data

Results flagged for a closer look

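Within groups of 4 to 10 libraries, 2 of 62 combinations of measure and group held a library far from the others by Dixon's criterion, and chance gives about 1 in 20. Both are library 2 of the control BM of set 1. There mt-Nd1 held 5.40% of the protein-gene TPM, against 4.78% to 4.80% in the other 3, and mt-Nd5 held 3.43%, against 2.36% to 2.50%. This library also had the lowest mitochondrial share of its group, 8.26%.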

How the results depend on the processing

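Of the values for single called genes 693 kept and 70 lost the call, and none changed direction. Values for whole groups and comparisons were not scored for direction: 754 stayed within the limits and 57 moved. For a mean share the limit was the SD of its group. Leaving out 1 library cannot move a mean that far, so those shares stayed within it by construction. Without mt-Atp8 the mean mitochondrial share was 7.23% (control BM), 7.16% (DKO yBM) and 5.32% (DKO tumor) in set 1, and in set 2 it was 5.83% (control BM), 4.73% and 4.11% (SKO and DKO tumor), 4.25% and 3.20% (SKO and DKO yBM), and 2.95% and 3.63% (SKO and DKO BMT). With copies added it was 18.9% (SKO yBM), 14.8% (DKO BMT) and 13.9% (DKO tumor) in set 2. For the counts of members that follow, the share of all genes called in the same fit is not given, so they cannot be set beside it. Members called in set 1 were 2 in DKO yBM with the compared groups alone, 1 with median-ratio scaling and 1 without the libraries whose Trp53 went against the label. Without those libraries DKO BMT of set 1 held DKO BMT 1 alone. The counts of members called in its comparisons and in the F test are then not given. In set 2, with the compared groups alone, they were 1 in SKO yBM, 2 in DKO yBM, 0 in SKO BMT and 1 in DKO tumor. In DKO yBM they were 3 with median-ratio scaling, 2 scaled to the nuclear total and 2 without the SKO libraries of low Wwox. In SKO BMT they were 1 with no filter, 1 without the libraries labelled DKO whose Wwox was high, 0 without SKO BMT 2 and 3 (low Wwox) and 1 with copies added. Between the sets they were 12 without the libraries labelled DKO whose Wwox was high. Relative to the protein-gene total, 1 was called in DKO yBM of set 2 when scaled without mt-Atp8 and 1 when scaled to the mean log2 level, and 4 between the sets with pseudocount 0.1.

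Leaving out 1 library at a time gave 0 to 1 members in DKO yBM, DKO tumor and the F test of set 1. In set 2 it gave 0 to 2 in SKO yBM, 1 to 7 in DKO yBM, 0 to 4 in SKO BMT, 0 to 2 in DKO BMT, 0 to 1 in SKO tumor, 0 to 1 in DKO tumor and 0 to 1 in the F test. Relative to the protein-gene total it gave 0 to 1 in DKO yBM of set 2 and 1 to 6 between the sets. The counts of 7 and 4 came without control WT3, which had the lowest mt-Atp6 of the controls. The share of all genes called in these fits is not given either, so neither count can be set beside it. mt-Atp6 in DKO yBM kept its call in 14 of 15 alternatives, losing it with copies added, while in SKO BMT mt-Atp6 lost its call in 7 of 15 and mt-Nd6 in 8 of 15. The alternative without libraries whose Trp53 went against the label dropped none in set 2, so there it repeated the main fit. The alternatives that dropped libraries by Wwox left the difference of mt-Atp6 in DKO yBM at -2.19, since they held the same DKO yBM and control libraries. The cause of the moves above was not tested.

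With the replicate number as a block, 0 members were called in every comparison fitted with it, and the block changed no call. The same count of 0 was found in each tumor-against-BMT comparison with the block in tumor and BMT libraries alone. The paper calls the tumor and BMT cells of set 1 paired. For the other groups nothing says that a number marks a pair, and over all 9 same-numbered BMT and tumor pairs of a genotype deviations correlated at -0.144 to 0.285. Controls of set 2 carry no number in their columns, so no paired fit was run against them. DKO tumor of set 2 has no fit without libraries labelled DKO of high Wwox, since all 3 were. All groups but 2 hold 3 libraries, and the depth is unknown.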
